A study of Oryza sativa with 4 samples.

Results

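Nucleosomes that flank long linker gaps of the WT map were described across the 12 nuclear chromosomes of rice. In MNase-seq, chromatin is digested with micrococcal nuclease and the protected, nucleosome-sized DNA is sequenced. A summit is the point within a nucleosome where the resulting signal is highest. The WT summits were sorted by position, and a gap was defined as a distance of 350 to 1000 bp between neighbouring summits. This gave 221976 gaps, and the 400249 WT summits at their edges are the members described here, which is 28.7% of the 1395431 WT summits of these chromosomes. The whole map listed 1690300 nucleosomes, 1688708 of them on these chromosomes. As the rule used the positions of the WT summits, the number, the length and the place of the gaps are descriptions and not findings, and the same holds for all values of WT at the edges.

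The plants were seedlings of WT and of *oschz1*, 30 days old, raised in cycles of 14 h light (30 °C) and 10 h dark (28 °C), and 2 libraries were made from each genotype. Per the study's methods, the mutant is *oschz1-1*, a transgene-free knockout of the histone chaperone gene *OsChz1* made with CRISPR/Cas9, so that a single mutant line was compared with WT. The authors had merged the libraries of a genotype into 1 value per nucleosome. No difference between the genotypes could therefore be set against the spread between replicates, no test across samples was possible, and nucleosomes were not used as replicates.

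In a nucleosome, DNA is wrapped around a histone octamer, and linker DNA joins each nucleosome to the next. Where nucleosomes are regularly spaced, the distance between summits is the nucleosome repeat length. Long stretches without a positioned nucleosome are known from promoters and other regulatory DNA of eukaryotes, where bound factors, remodellers and stiff DNA keep nucleosomes away. The nucleosomes that border such stretches are often sharply positioned, and the order decays with distance from the border. The chaperone Chz1 of yeast prefers H2A.Z-H2B to H2A-H2B dimers, and the study reports that OsChz1 binds both. H2A.Z is known to be enriched in nucleosomes that border nucleosome-free promoters in yeast.

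Since a gap is chosen for the absence of a WT summit, any summit in its place can appear only in *oschz1*. To show how much of a value follows from this choice, the rule was also applied with the genotypes exchanged, to gaps between neighbouring *oschz1* summits. It found 220209 such gaps with 398032 edges among 1409388 *oschz1* summits. Gaps made up 15.9% of the distances between WT summits and 15.6% of those between *oschz1* summits. The median gap was 440 bp long in either map, with quartiles of 380 and 550 bp, against a median distance of 200 bp between all neighbouring summits. The lowest distance was 100 bp in either map. The WT gaps spanned 109 Mb in all and the *oschz1* gaps 107 Mb. A further 18320 distances in WT and 17162 in *oschz1* were over 1000 bp and were not taken as gaps.

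The limits of 350 and 1000 bp did not separate distinct classes. Just below the lower limit, from 340 bp on, there were 16593 distances within 10 bp, and just above it there were 15883. The edges on these sides of the limit had a median WT fuzziness of 51.6 and 51.5 and a median WT occupancy of 16.2 and 16.3. Fuzziness is a score for the spread of fragment positions around a summit, so that a low score means a sharply positioned nucleosome, and occupancy is the height of the authors' scaled signal there. At the upper limit, 378 distances lay within 10 bp below it and 322 within 10 bp above it, with a median WT occupancy of 15.2 on either side. Both edges of a gap lay above the lower quartile of all WT summits, an occupancy of 13.3, in 115982 gaps.

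The gaps were spread over all chromosomes in near proportion to the summits. The number of WT gaps per 1000 WT summits lay between 155 on chromosome 11 and 163 on chromosome 1, and that of *oschz1* gaps per 1000 *oschz1* summits between 149.04 on chromosome 11 and 162 on chromosome 5. Within chromosomes the range was wider. Over 376 windows of 1 Mb with at least 1000 summits in both maps, there were 120 to 226 gaps per 1000 summits in WT, with a median of 159, and 117 to 220 in *oschz1*, with a median of 157. The window with the lowest WT value was on chromosome 11 of MSU7 from 10 to 11 Mb, where WT had 506 gaps and *oschz1* had 520. The highest value was on chromosome 4 from 14 to 15 Mb, where both maps had 538 gaps, or 226 per 1000 summits in WT and 220 in *oschz1*. The next highest WT values were 203 on chromosome 6 from 18 to 19 Mb and 199.5 on chromosome 12 from 1 to 2 Mb, where *oschz1* had 192 and 193. Across the 376 windows, Pearson's r between the maps was 0.80. It is given as a description, since both maps share the genome sequence and its uniquely mapped parts.

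Most gaps stood alone. There were 144479 WT gaps with no gap beside them, while 34.9% of the gaps were in runs of 2 or more that shared an edge. Accordingly, 356546 edges had a gap on one side and 43703 had a gap on both sides. The *oschz1* map gave 34.2% and 42386. The longest WT run held 10 gaps between 11 summits on chromosome 7 of MSU7, from 8248551 to 8254071, and was picked out after its values had been seen. Its gaps were 370 to 910 bp long. The WT occupancy of its 11 summits ranged from 10.1 to 33.4, with a median of 15.9, and their *oschz1* occupancy from 5.85 to 20.5, with a median of 13.8. The *oschz1* map kept 9 of the 11 summits and added 5 others, in 5 of the 10 gaps. The longest *oschz1* run held 11 gaps on chromosome 11, from 14925371 to 14931373. There WT kept 11 of 12 summits and placed no summit of its own in a gap.

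The mutant map placed a summit of its own in more WT gaps than it left without one. At least 1 summit found only in *oschz1* lay inside 126302 of the 221976 WT gaps, which is 56.9% (exact 95% binomial interval 56.7 to 57.1%, which covers counting error only). With the genotypes exchanged, 119945 of the 220209 *oschz1* gaps held a summit found only in WT, which is 54.5% (54.3 to 54.7%). Most of the share is thus obtained whichever genotype defines the gaps, and the difference was 2.43 percentage points. Counting only summits above the lower quartile of all *oschz1* summits, an occupancy of 13.1, the share of WT gaps was 34.7%. The share under this filter was not computed with the genotypes exchanged. Without this filter, 1 *oschz1*-only summit was found in 96845 of the WT gaps, 2 in 25588, 3 in 3500 and more in 369. The WT gaps took 160023 summits in all, or 72.1 per 100 gaps, against 68.1 WT summits per 100 *oschz1* gaps. The supply of such summits differed as well, as 293277 nucleosomes of the 12 chromosomes had a summit in *oschz1* alone and 279320 in WT alone. Of these, 54.6% and 53.7% lay inside gaps of the other map.

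The share depended on the length of the gap. From 350 bp to just under 400 bp, 49.4% of the WT gaps and 48.7% of the *oschz1* gaps held a summit of the other map. From 600 bp to just under 700 bp these shares were 66.1% and 62.4%, and from 800 to 1000 bp they were 64.0% and 57.1%. The difference between the definitions therefore widened from 0.62 to 6.90 percentage points between the shortest and the longest class. By chromosome, the share was higher in WT gaps than in *oschz1* gaps on all 12, by 1.06 points on chromosome 9 to 4.18 points on chromosome 11. The chromosomes come from the same merged maps and are not replicates. Stretches of chromosomes 10 and 11 with almost no WT signal, 7 in all, touched 175 WT gaps, of which 131 held an *oschz1*-only summit. Without these chromosomes the shares from 800 to 1000 bp were 64.1% and 57.4%.

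**Figure D1:**
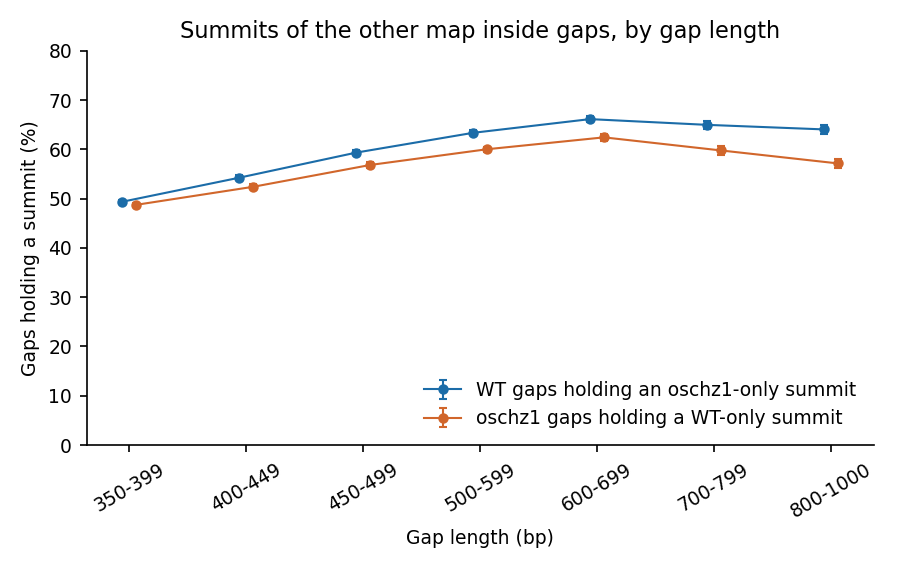
Share of gaps (y axis, %) that held at least 1 summit found only in the other map, by gap length (x axis, bp). Blue points are WT gaps, orange points are *oschz1* gaps from the same rule with the genotypes exchanged, and bars are exact 95% binomial intervals. The series run close together at the shortest gaps (49.4 and 48.7%) and part at the longest (64.0 and 57.1%).

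Gaps were not empty of signal where the mutant placed a summit. At the 160023 *oschz1*-only summits inside WT gaps, the WT occupancy had a median of 6.91 with quartiles of 5.06 and 8.47, and the *oschz1* occupancy had a median of 13.6 with quartiles of 11.7 and 16.4. The WT signal was at least 5 at 77.1% of them, under 1 at 1059 and 0 at 335. Listed summits had a sharp lower limit. Only 0.0912% of all WT summits and 0.105% of all *oschz1* summits had an occupancy under 10 in their own map. Inside WT gaps, the *oschz1* occupancy was at least 10 at 99.8% of the *oschz1*-only summits, and the WT occupancy was under 10 at 91.2% of them. At most of these places the signal thus lay on different sides of about 10 in the maps. At the rest, the WT signal was mostly 10 or more although no WT summit was listed. The part of the lower limit in the presence of gaps was not tested. The WT-only summits inside *oschz1* gaps showed the same picture, with a median occupancy of 13.7 in WT and 6.96 in *oschz1*.

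**Figure D2:**
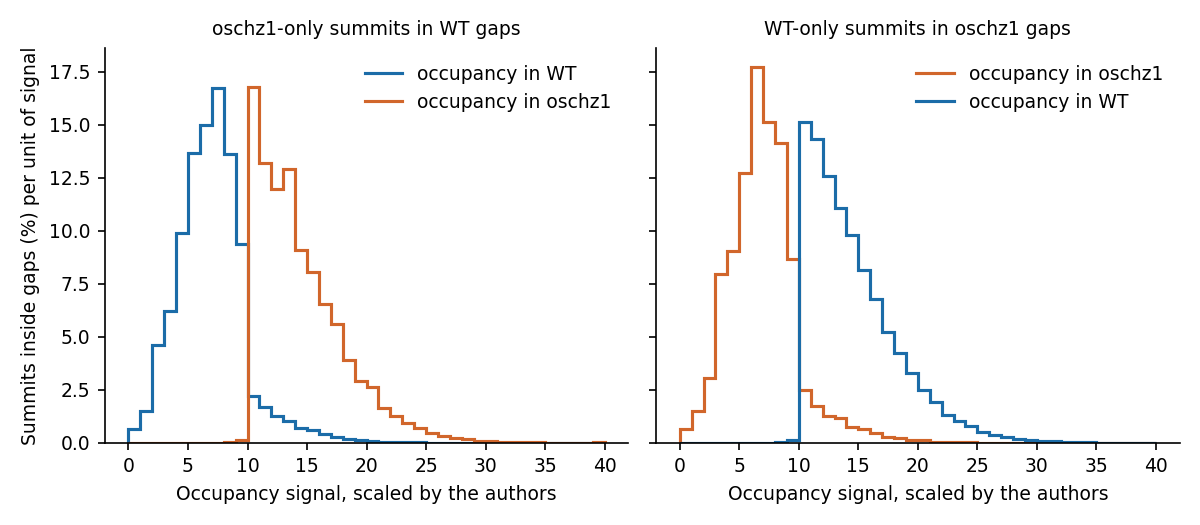
Occupancy signal (x axis, as scaled by the authors) at summits found in 1 map inside gaps of the other, as a percentage of these summits per unit of signal (y axis; values of 40 and more are in the last bin). Left, *oschz1*-only summits in WT gaps; right, WT-only summits in *oschz1* gaps; blue lines are WT values and orange lines *oschz1* values. In both panels the map with the summit starts sharply at 10 and the gapped map has a median near 7.

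The summits inside differed by at least 2-fold, with a pseudocount of 1 added to either occupancy, at 75338 of the 160023 places (47.1%). Among all 293277 summits listed in *oschz1* alone, 41.8% did so, and over all nucleosomes of the 12 chromosomes 8.02% were at least 2-fold higher and 7.79% at least 2-fold lower in *oschz1*. These shares are given without a test, as summits of a single map were chosen on the same signal. Gaps were also counted by a condition farther from the limit of 10. An *oschz1* occupancy of at least 15 beside a WT occupancy under 5 was found inside 9085 WT gaps (4.09%, interval 4.01 to 4.18%), and the exchanged condition inside 8776 *oschz1* gaps (3.99%, interval 3.904 to 4.07%). From 800 to 1000 bp the shares were 6.56% (6.11 to 7.02%) and 5.76% (5.33 to 6.21%). This condition was set once the values had been seen.

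The summits inside lay at similar places in either definition. The distance from the nearest edge had a median of 165 bp and quartiles of 130 and 200 bp in WT gaps, and the same 3 values in *oschz1* gaps. In WT gaps shorter than 450 bp that held a lone *oschz1*-only summit, 53333 in number, 50.5% of these summits lay in the middle 20% of the gap, at a median of 150 bp from the nearest edge. For lone WT-only summits in *oschz1* gaps of these lengths the share was 51.7%. These distances are bounded by the length of the gap, and no value expected from this bound was computed. The lowest distance of 100 bp between listed summits holds within a map and not between maps. The 5th percentile of the distance from the nearest edge was 90 bp in either definition. Across the midpoint of a WT gap, neighbouring *oschz1* summits were a median of 370 bp apart. Their distance was under 250 bp in 23.5% of the gaps and between 350 and 1000 bp in 53.6%. With the genotypes exchanged these shares were 23.0% and 54.4%.

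**Figure D3:**
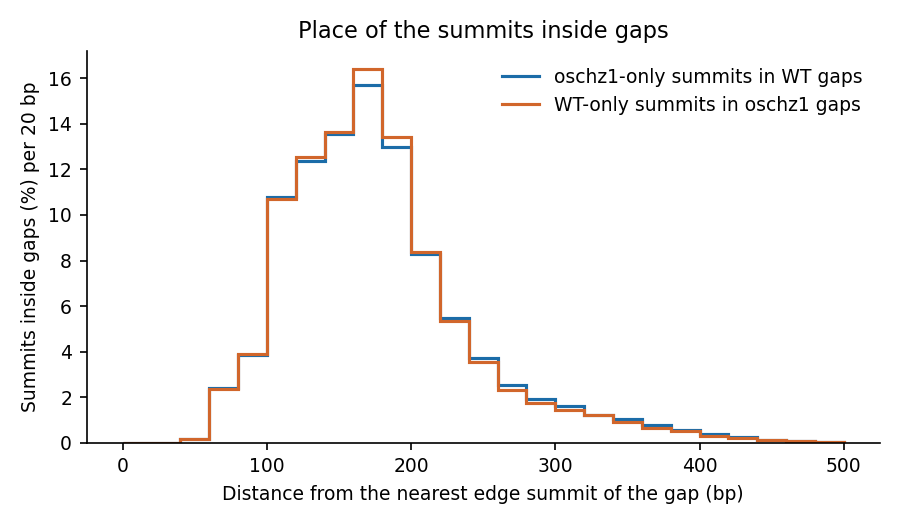
Distance of single-map summits inside gaps from the nearest edge summit (x axis, bp), as a percentage of these summits per 20 bp (y axis). Blue, *oschz1*-only summits in WT gaps; orange, WT-only summits in *oschz1* gaps. The lines nearly coincide, and the medians were 165 bp in either.

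Of the gaps that received a strong summit, 5 were named by rule, as those with the highest *oschz1* occupancy at a summit inside and with both edges kept. On chromosome 10 of MSU7, the gap from 10812041 to 10812401 (360 bp) held an *oschz1*-only summit at 10812121, where occupancy was 29.2 in WT and 50.9 in *oschz1*. Its edges had an occupancy of 40.8 and 36.4 in WT and of 44.7 and 49.7 in *oschz1*. On chromosome 12, the gap from 20622851 to 20623261 held a summit at 20623191 with 29.7 in WT and 50.6 in *oschz1*. The WT signal at these summits was far above 10, so that the absence of a WT summit there did not mean a low signal. A second gap on chromosome 12, from 20514211 to 20514561, had 30.9 in WT and 49.1 in *oschz1* at 20514401. On chromosome 2, from 18885231 to 18885691, the summit at 18885621 had 32.7 in WT and 49.1 in *oschz1*, while the right edge fell from 37.4 in WT to 12.2 in *oschz1*. The fifth gap, on chromosome 6 from 7195871 to 7196461 (590 bp), showed the widest contrast of these, with 10.5 in WT and 47.2 in *oschz1* at 7195951. Its edges went from 27.0 and 23.8 in WT to 14.8 and 15.3 in *oschz1*, and a further *oschz1*-only summit lay in the same gap. At the named summit inside each of the 5 gaps, occupancy was higher in *oschz1* than in WT, which the selection for the highest *oschz1* values favours. In 3 of these 5 gaps the left *oschz1* edge was displaced by 40 to 80 bp away from the gap. Most of these summits lay close to a WT edge and not in the middle of the gap. Counted from the left edge, they lay at 80 of 360 bp on chromosome 10 and at 340 of 410 bp and 190 of 350 bp on chromosome 12. On chromosomes 2 and 6 they lay at 390 of 460 bp and 80 of 590 bp. The right edges near the summits at 20623191 and 18885621 were displaced by 70 and 50 bp away from the gap.

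Gaps were next followed as whole units. In 65209 WT gaps (29.4%) both edges had an *oschz1* summit and no *oschz1*-only summit lay between them, and in 80034 (36.1%) both edges were kept with a summit inside. One edge lacked an *oschz1* summit in 27221 gaps without and 40780 gaps with a summit inside, and both edges lacked one in 3244 and 5488. The share of gaps kept without a summit inside was 29.2% with the genotypes exchanged. Gaps with no edge kept and no summit inside, where the other map had fewer summits still, were 1.46% of the WT gaps and 2.17% of the *oschz1* gaps.

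The gaps common to both maps, with the same pair of edges at a distance of 350 to 1000 bp in each and nothing between, numbered 53413, or 24.1% of the WT gaps. The share was highest, at 27.8%, from 400 bp to just under 450 bp and lay between 21.6 and 26.1% in the other classes of length. By chromosome it ranged from 23.3% on chromosome 3 to 25.4% on chromosome 4. Their median length was 440 bp in either map. In *oschz1*, 46.2% of the common gaps were shorter and 46.8% longer than in WT, and the median absolute change was 25 bp. Of the common gaps, 46.1% were within 20 bp of the WT length. Shorter and longer were thus nearly balanced at gaps found in both genotypes. Of all 65209 gaps kept without a summit inside, some of which fell below 350 bp in *oschz1*, 55.7% were shorter and 38.6% longer, with a median change of -10 bp. With the genotypes exchanged these shares were 55.6% and 38.6%.

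Edges of common gaps were sharper than those of the other gaps. Their median fuzziness was 49.3 in WT and 49.5 in *oschz1*, against 51.9 and 53.2 at edges of all other WT gaps. Their median occupancy was 16.8 in WT and 17.0 in *oschz1*, against 15.8 and 14.4. A displacement of at least 50 bp was found at 16.7% of the edges of common gaps and at 24.2% of the other edges with a summit in both genotypes. Because a gap counts as common only if its edges are found in both maps and stay apart, low displacement and high occupancy follow partly from the definition. Of the other edges, 24.7% had no *oschz1* summit, and their *oschz1* fuzziness and occupancy are included in the medians above. The part of this choice in the lower fuzziness of common edges was not tested. An edge shared by a common gap and another gap is counted in both sets.

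The 5 gaps with the highest WT occupancy at edges that were kept and with no summit inside were also named. On chromosome 11, the edges at 7181561 and 7182001 had an occupancy of 58.0 and 52.0 in WT and of 28.6 and 31.9 in *oschz1*, and the distance between them was 440 bp in WT and 430 bp in *oschz1*. On chromosome 10, the neighbouring gaps from 6143971 to 6144331 and from 6144331 to 6144721 shared an edge, and their 3 edges went from 49.6, 49.8 and 53.5 in WT to 34.1, 32.3 and 31.9 in *oschz1*. The first of these was 360 bp long in WT and 300 bp in *oschz1*, which is below the limit of a gap. On chromosome 9, the edge at 2783411 had 45.4 in WT and 42.1 in *oschz1*, the edge at 2783891 had 55.8 and 28.3, and the distance was 480 bp in WT and 370 bp in *oschz1*. On chromosome 3, the edges at 10324711 and 10325081 went from 46.7 and 51.0 to 32.6 and 29.3, with a fuzziness of 35.1 and 35.3 in WT and of 32.2 and 35.6 in *oschz1*. All 9 of these edges were lower in *oschz1*, which the selection for the highest WT values favours.

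At the edges as a whole, occupancy was lower and positions were sharper than in closely spaced arrays. The median WT occupancy was 16.0 (quartiles 12.96 and 20.1) over the 400249 edges, and 16.9 (13.5 and 21.3) over the 658389 WT summits with both neighbours less than 250 bp away, which serve as the comparison. In *oschz1* the medians were 15.1 and 16.1. The median log2 ratio of *oschz1* to WT was -0.13 at edges and -0.12 at comparison summits, and for the exchanged rule the ratio of WT to *oschz1* was -0.14 and -0.11. These 4 medians were below 0, whichever map had been used to choose the summits.

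Few edges changed occupancy where both genotypes had a summit. Over all 400249 edges, 3327 (0.831%) were at least 2-fold higher and 39701 (9.92%) at least 2-fold lower in *oschz1*, where over all WT summits the percentages were 0.918 and 9.42. At comparison summits they were 0.996% and 8.97%. At *oschz1* edges, 0.941% were at least 2-fold higher and 10.6% at least 2-fold lower in WT, where over all *oschz1* summits the percentages were 1.05 and 9.61. Calls of low edges rested on the pseudocount, and with a pseudocount of 5 the share of WT edges past 2-fold in either direction was 4.54% in place of 10.8%. The edges with a summit in both genotypes, 323062 in number, included 3324 that were at least 2-fold higher (1.03%) and 4135 that were at least 2-fold lower (1.28%), where all nucleosomes with both summits gave 1.14 and 1.32. These shares of edges are near those of the map as a whole. Edges without an *oschz1* summit made up 19.3% of the edges and 20.7% of the comparison summits, and at 89.2% of such edges the *oschz1* occupancy was under 10. With the genotypes exchanged, 20.6% of the *oschz1* edges lacked a WT summit against 21.2% of the comparison summits.

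Edges without an *oschz1* summit were also counted within quartiles of the mean occupancy of both genotypes. The mean contains the *oschz1* occupancy, and listed summits lay almost all above 10, so that the fall of the share from the lowest to the highest quartile was largely set by the grouping and is not a finding. In the lowest quartile, 74.4% of the edges and 79.0% of the comparison summits lacked an *oschz1* summit. In the highest quartile these shares were 0.919% and 2.37%. In each of the 4 quartiles the edges lacked a summit in *oschz1* less often than the comparison summits, with 15.1% against 23.8% in the second and 3.88% against 8.56% in the third. The exchanged rule gave the same order in each quartile, with 76.3% against 79.5% in the lowest and 0.901% against 2.39% in the highest. The comparison pooled spacings that differed in this share. Over all quartiles together, WT summits with the farther neighbour below 150 bp lacked an *oschz1* summit in 40.9%. The share was 21.1% from 150 bp and 16.5% from 200 bp. At edges it rose from 18.2% from 350 bp to 20.4% from 700 to 1000 bp, higher than in the class from 200 bp. The exchanged rule gave 17.0% from 200 bp, against 19.1% and 23.0% at these edges. Whether the order within quartiles holds at each spacing was not tested.

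Edges were more sharply positioned than comparison summits in both genotypes. The median fuzziness of edges was 51.4 in WT (quartiles 47.3 and 54.7) and 52.4 in *oschz1* (48.0 and 56.2), against 54.4 (50.9 and 57.5) and 54.9 (51.2 and 58.4) at comparison summits. The *oschz1* medians include the 19.3% of edges and 20.7% of comparison summits without an *oschz1* summit. With the genotypes exchanged, the median of edges was 51.5 in *oschz1* and 52.3 in WT, so that the defining map had the lower score in either case. The *oschz1* scores were not used by the rule. Where both genotypes had a summit, 33.1% of the edges had an *oschz1* fuzziness above the median of the comparison summits, where 50% would be no difference. With the genotypes exchanged the share was 32.7%. Within quartiles of mean occupancy it was 29.6, 30.0, 30.7 and 31.0% from the lowest to the highest, so that the lower fuzziness of edges was found at each level of occupancy. Edges with a gap on both sides had the lowest medians, 49.3 in WT and 50.7 in *oschz1*, against 51.7 and 52.6 at edges with a gap on one side. The fuzziness of a summit is computed from the fragments around it, and a near neighbour adds fragments there. The part of this overlap in the difference was not tested.

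Fuzziness fell as the adjoining linker widened. Grouped by the distance to the farther neighbour, WT summits had a median WT fuzziness of 59.6 below 150 bp, 54.7 from 150 bp, 53.3 from 200 bp, 53.7 from 250 bp and 52.8 from 300 bp. Among edges it was 51.8 from 350 bp, 52.0 from 400 bp, 51.2 from 500 bp and 50.2 from 700 to 1000 bp. Summits beside distances of more than 1000 and up to 2000 bp, which are no members unless a gap lies on their other side, had 47.8. The *oschz1* scores of the same summits were 58.1, 55.0, 54.1, 54.4 and 53.7 up to the limit of a gap, 52.9, 52.9, 52.3 and 51.2 among edges, and 48.6 beyond. The order of the classes was thus nearly the same in either genotype, with small rises from the class at 200 bp to that at 250 bp and from that at 350 bp to that at 400 bp. The median WT occupancy was 17.2 in the class from 200 bp and 15.5 in that from 700 to 1000 bp.

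**Figure D4:**
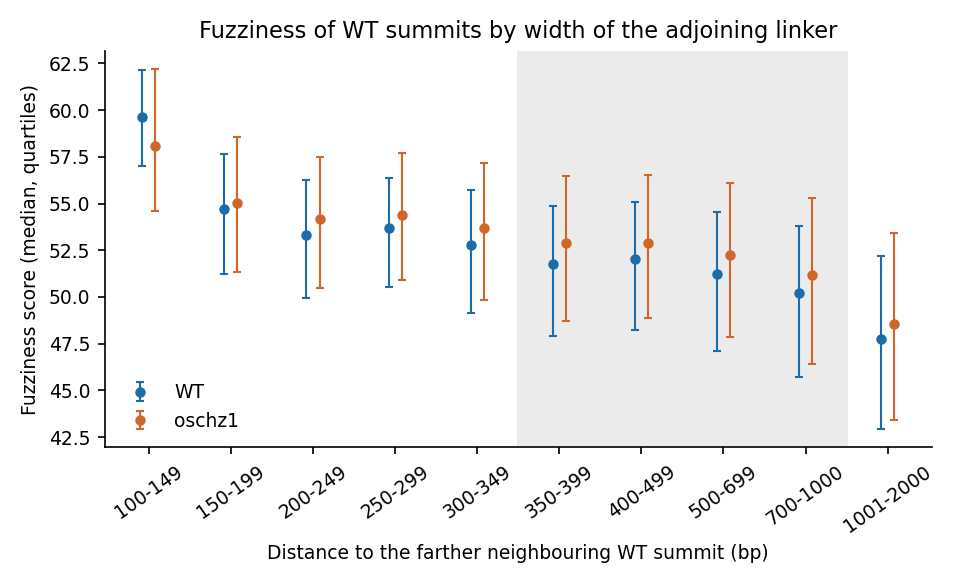
Median fuzziness score (y axis, lower is sharper; the axis does not start at 0) of WT summits by the distance to the farther of the neighbouring WT summits (x axis, bp). Blue points are WT scores, and orange points are *oschz1* scores of the same nucleosomes, including those without an *oschz1* summit. Bars are quartiles over nucleosomes, and the grey band marks the range of gaps. Within the band the medians fall from 51.8 to 50.2 in WT and from 52.9 to 51.2 in *oschz1*, well within the quartiles.

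Outwards from the gap the sharpness was lost mostly at the first step. Counting the edge as the first summit, the median WT fuzziness was 51.2, 52.5 and 52.6 at the first 3 summits and reached 53.0 at the eighth, close to the 53.3 of all WT summits. In *oschz1* the same nucleosomes had 52.3, 53.3 and 53.4, and 53.7 at the eighth. Around *oschz1* gaps the *oschz1* scores were 51.3, 52.6, 52.7 and 53.0 at these places. The map that defined the gap had the lower scores in either case. Only the edge was chosen for its wide distance to a neighbour, and the part of this choice in the first step was not tested. The next spacing outwards had a median of 210 bp at the edge and 200 bp at the eighth summit. Its quartiles went from 160 and 325 bp to 160 and 300 bp. The count ran on across other gaps, so these pooled values cannot show whether nucleosomes beside gaps were regularly spaced. Median WT occupancy rose from 16.0 to 16.3 over the 8 places.

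**Figure D5:**
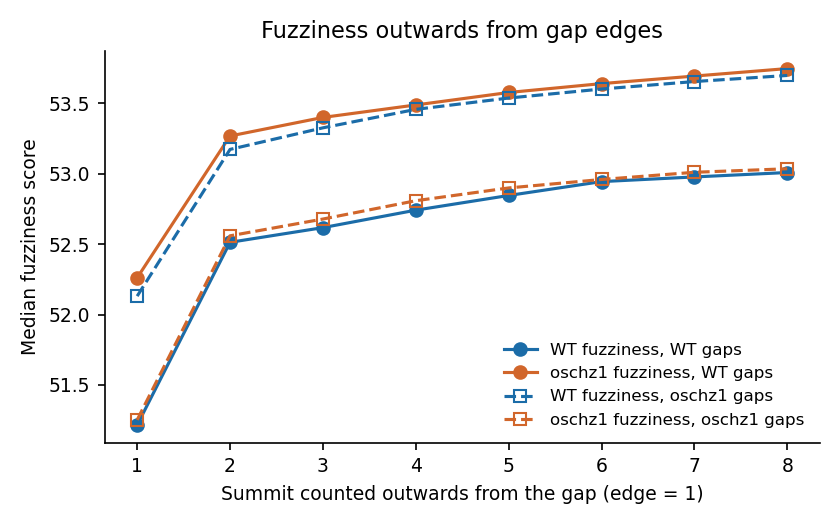
Median fuzziness score (y axis, not starting at 0) at the first 8 summits outwards from a gap, both sides together (x axis, edge = 1). Filled points are WT gaps and open squares *oschz1* gaps, with WT scores in blue and *oschz1* scores in orange. In each series the largest step is from the edge to the second summit, as from 51.2 to 52.5 for WT scores at WT gaps, and no series is set against replicate error.

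The edges and the summits inside were related by how the gap fared. Edges of WT gaps without an *oschz1*-only summit had a median fuzziness of 49.98 in WT and 50.6 in *oschz1*. With 1 such summit inside the values were 52.0 and 53.2, and with 2 or more 52.7 and 54.5. The median length of these gaps was 420, 430 and 560 bp, so that the fuzziest edges bordered the longest gaps, against the order by width given above. The share of edges without an *oschz1* summit rose along the same classes, from 17.6 to 19.9 and 22.4%, and that of *oschz1* edges without a WT summit from 20.1 to 20.5 and 23.0%. For *oschz1* gaps the median *oschz1* fuzziness was 50.1, 52.1 and 52.7 along these classes, and the median WT fuzziness was 50.5, 53.2 and 54.6.

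Displaced edges moved into the gap more often than away from it, in either definition. Of the edges with a summit in both genotypes, 71384 (22.1%) had an *oschz1* summit at least 50 bp away, where all nucleosomes with both summits gave 22.7 and the comparison summits 21.2%. The median displacement was 20 bp in each set. The direction was taken at edges with a gap on one side. Of 63872 that were displaced by at least 50 bp, 35800 (56.0%, interval 55.7 to 56.4%) moved into the gap. For *oschz1* gaps the WT summit lay towards the inside at 34797 of 62106 (56.0%, interval 55.6 to 56.4%). The share was 53.9% from 20 bp on and 60.3% from 70 bp on, and 53.7% and 60.7% with the genotypes exchanged. Comparison summits displaced by at least 50 bp moved to higher coordinates in 49.3% of cases. As they have near neighbours on both sides, this share is no baseline for moves into a gap. Edges were chosen for a wide distance on one side in the defining map, and the neighbour on the other side is nearer. The part of this choice in the share of moves into the gap was not tested.

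The direction differed with what lay in the gap. Where no *oschz1*-only summit was inside, 17060 of 25603 displaced edges (66.6%, interval 66.1 to 67.2%) moved into the gap, and where one or more was inside, 18740 of 38269 did (48.97%, interval 48.5 to 49.5%). The exchanged rule gave 66.1% and 48.8%. Listed summits were at least 100 bp apart in each map, so that a summit inside leaves an edge less room to lie further in. The part of this limit in the difference was not tested.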

How the data were processed

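MNase-seq of 2 WT and 2 *oschz1* libraries was analysed from a single table of 17 columns. Of these, 2 columns of occupancy at the point of largest difference were mapped to no sample and not used. The authors trimmed the reads, mapped them in pairs to the rice genome (MSU7) with Bowtie2 2.3.4.1 (submitters' processing notes), filtered on mapping quality and duplication with Samtools, and ran DANPOS, whose options are not given in the sources used here. Positions are MSU7 coordinates as deposited. Occupancy is a signal, scaled by the authors and merged per genotype, and fuzziness is a score deposited by the authors. The columns of the authors' own comparison (the point of largest difference, distances, −log10 p-values, FDR as p-values and a score in place of a fuzziness −log10 p) were deposited but not used. The depth of the libraries is unknown.

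Control columns were taken as WT and treated columns as *oschz1*. Chromosomes 1 to 12 were kept. Gaps, edges, single-map summits inside (strictly between the WT edges), 2-fold changes (log2 ratio of at least 1, pseudocount 1) and displacements were computed with Python 3.11.15, numpy 2.4.6, pandas 2.3.3, scipy 1.17.1 (exact Clopper-Pearson intervals of 95%, for counting error only; neighbouring gaps share edges) and matplotlib 3.10.9. The code was tested on simulated data. No test was made. Members and lists were chosen with earlier results of these data known. Named gaps were the 5 with the highest *oschz1* occupancy at an *oschz1*-only summit inside and the 5 with the highest mean WT occupancy of the edges and no such summit, with both edges kept, an occupancy of at least 5 at the edges in both genotypes, at most 2 per chromosome, and for the first list outside stretches without WT signal (at least 5 consecutive nucleosomes under 1 in WT and at least 5 in *oschz1*, joined below 100000 bp). Alternatives concerned gap limits, occupancy filters, the pseudocount, the fold, chromosomes 10 and 11 and the exchange of genotypes. No MSU7 genome or annotation was used, so no sequence is shown and no gene is named.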

Additional observations from a re-analysis of the deposited data

How the results depend on the processing

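No paired analysis was possible because the table gives a single merged value for a genotype, and no replicate could be left out in turn. The 221976 gaps fell to 115982 when both edges had to exceed the lower quartile of WT summits, and stayed within 1.5 times under the other settings. The share of gaps holding an *oschz1*-only summit, 56.9%, was 53.0% for gaps from 300 bp, 60.4% from 400 bp, 56.1% up to 700 bp, 54.5% with the summit at least 100 bp from both edges, 57.2% with both edges above the lower quartile, 34.7% with the summit inside above the lower quartile of *oschz1* summits, and 54.5% with the genotypes exchanged. With at least 15 in *oschz1* and under 5 in WT it was 4.09%, and 3.99% exchanged, both chosen after the data had been seen. The share of edges past the fold in either direction, 10.8%, was 12.6% with a pseudocount of 0.1, 4.54% with 5, 30.0% at 1.5-fold, 5.44% above the lower quartile of mean occupancy, 2.31% with a summit in both genotypes and 11.5% exchanged. Displaced edges moved into the gap in 53.9% from 20 bp and 60.3% from 70 bp, against 56.0%. Edges above the comparison median of *oschz1* fuzziness, 33.1%, were 29.4% against neighbours under 200 bp, 29.6, 30.0, 30.7 and 31.0% within quartiles of mean occupancy, and 32.7% exchanged. The share stayed on its side of 50% in each. Moves with a fold, pseudocount or height limit follow from its construction. Without chromosomes 10 and 11 the shares were 56.9% for gaps, 10.8% for the fold and 33.3% for fuzziness. Without replicates or depth, the error of a single value is unknown.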
